A study of Mus musculus with 6 samples.

Results

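Platelet-derived growth factor (PDGF) signalling and the pericyte genes were followed as 10 genes among the 16344 of the deposited table. They were listed by symbol, with earlier results of these data known. These were 4 ligand genes Pdgfa, Pdgfb, Pdgfc and Pdgfd, the receptor genes Pdgfra and Pdgfrb, and the pericyte genes Cspg4, Rgs5, Notch3 and Mcam. All 10 had a row, each with a value in every library. The samples were 6 mouse tumours grown from the 60577 high-grade serous ovarian cancer line, a single line injected into the peritoneal cavity of syngeneic mice. Per the labels, the tumours established for 21 days, carboplatin was given in 3 weekly cycles, and AZD7507, an inhibitor of the macrophage growth factor receptor CSF1R, was given by daily gavage for 84 days. The groups were 3 tumours labelled AZD7507 and 3 labelled Vehicle, all taken at endpoint. Carboplatin thus belonged to the protocol of both groups. The labels give no mouse strain, age or day of collection, and they do not say which animal each tumour came from.

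PDGF ligands are secreted dimers that bind PDGFRA and PDGFRB, cell surface receptor tyrosine kinases of the same structural class as CSF1R. Endothelial cells secrete PDGF-B and thereby recruit pericytes, the PDGFRB-bearing cells that wrap small vessels, while PDGFRA is best known on fibroblasts. Macrophages, platelets and tumour cells can also make the ligands. The series asked how CSF1R inhibition changed tumours that had relapsed after carboplatin, and the 10 genes follow its vessel-supporting stroma.

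None of the 10 genes passed the test between AZD7507 and vehicle, while 7 of 15 macrophage markers fell. With limma, 0 of 10 members had an adjusted p under 0.05, against 0.355% of all genes, and 0 had an unadjusted p under 0.05, against 8.8% of all genes. Differences are log2 RPKM with AZD7507 minus log2 RPKM with vehicle, where RPKM counts reads per length of gene in a library of fixed size. They ran from -0.61 for Cspg4 to 0.15 for Pdgfa, with 6 members below 0, and their median was -0.20 against 0.03 over all genes. The widest 95% interval on the lower side reached -1.37, for Cspg4. By contrast, 15 of 15 macrophage markers had a negative difference, with a median of -2.13, and the 7 that fell stand against 0.337% of all genes called lower. That median ran from -2.40 to -1.59 with 1 library left out, although no gene then passed downward where the library was a vehicle one. The called genes were Csf1r, the drug target, which fell by 2.62, with Cx3cr1, C1qa, C1qb, C1qc, Adgre1 and Stab1. In bulk tissue, fewer cells of a type and less RNA per cell cannot be told apart, here or in any result that follows.

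**Figure D1:**
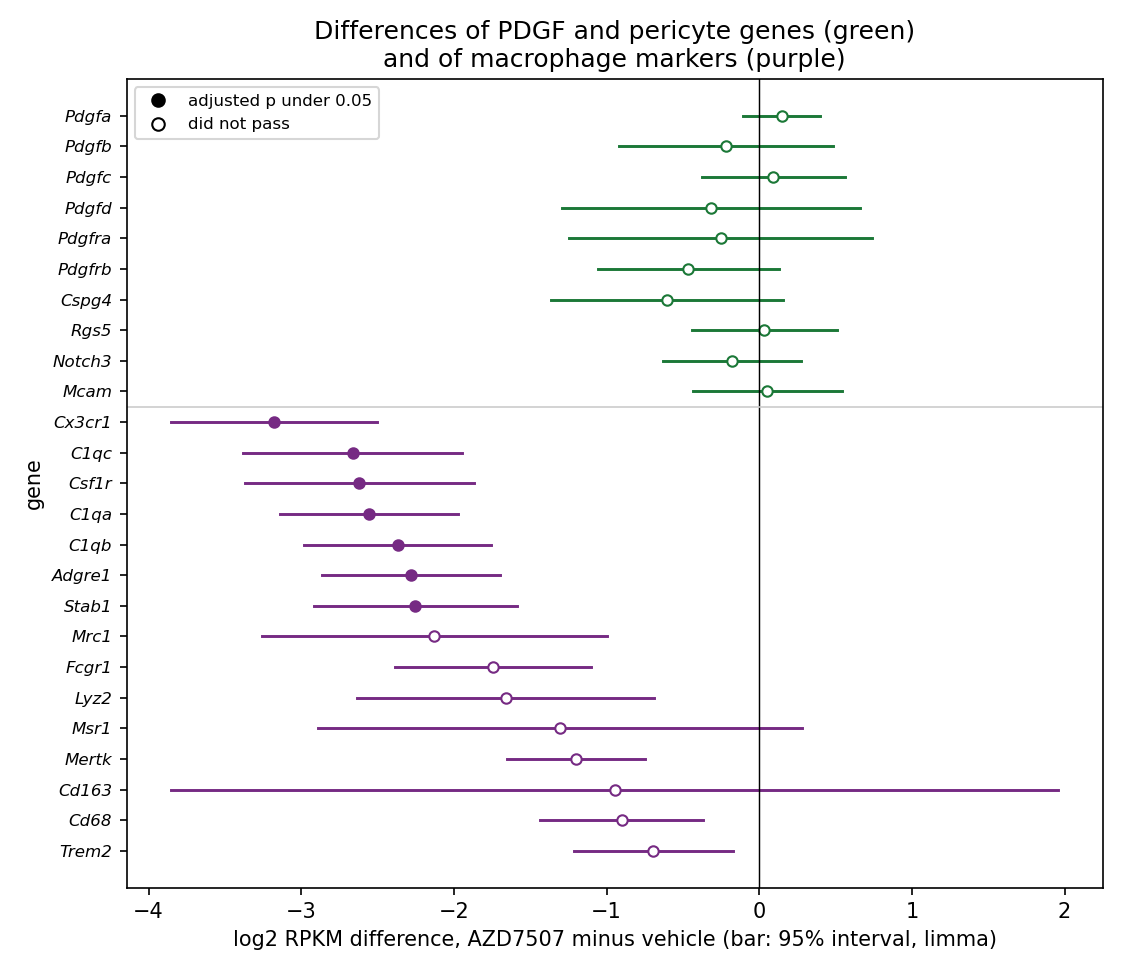
Difference of each gene in log2 RPKM, AZD7507 minus vehicle (x axis), for the 10 PDGF and pericyte genes (green) and 15 macrophage markers (purple). Points are estimates, bars are limma's 95% intervals from 3 libraries a group, and filled points had an adjusted p under 0.05; each green interval spans 0, and the filled points are 7 macrophage markers.

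The depth of each library is unknown, since the values are normalized log2 RPKM without counts. The libraries shared a maximum of 10.16 and an upper quartile of 3.52. Vehicle 2 and AZD7507 2 held pancreatic acinar RNA, with a mean log2 RPKM of 9.04 and 9.19 over 9 acinar genes, against -3.58 to -0.28 in the other libraries. The fits were repeated without each library and without this acinar-rich pair. Of the epithelial markers, Krt18 was at 6.89 to 7.47 and Krt19 at 7.17 to 8.08, while the serous lineage gene Pax8 was at -3.89 to -2.09. The mean over the 8 measured epithelial markers was 3.28 to 3.95, and which cells made these transcripts was not tested. Wt1 and Upk3b, counted here among the mesothelial markers, stood at 6.13 to 6.72 and 7.51 to 8.63, and their source was likewise not tested.

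RPKM is scaled by gene length, so levels can be ordered between genes. The mean log2 RPKM over 6 libraries was highest for Pdgfra, at 4.04, which exceeded 83.7% of all genes. Pdgfrb followed at 3.23, Rgs5 at 3.16, Mcam at 2.79, Pdgfa at 2.43, Pdgfb at 2.37, Pdgfc at 2.30, Cspg4 at 2.25 and Notch3 at 1.72. Pdgfd was far lower, at -1.18, and lay above only 6.05% of all genes. Pdgfra was above Pdgfrb in 6 of 6 libraries, by 0.82 ± 0.41 (SD of the difference within a library). Mcam was above Pdgfa, and Notch3 above Pdgfd, in 6 of 6 libraries as well. The neighbours from Pdgfa to Cspg4 differed by 0.05 to 0.07 on average, less than the SD of each difference (0.42 to 0.79), so their order is not resolved. The same holds for Pdgfrb and Rgs5, at 0.07 ± 0.45, and for Cspg4 and Notch3, at 0.53 ± 0.69. Rgs5 exceeded Mcam by 0.37 ± 0.35, in 5 of 6 libraries.

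**Figure D2:**
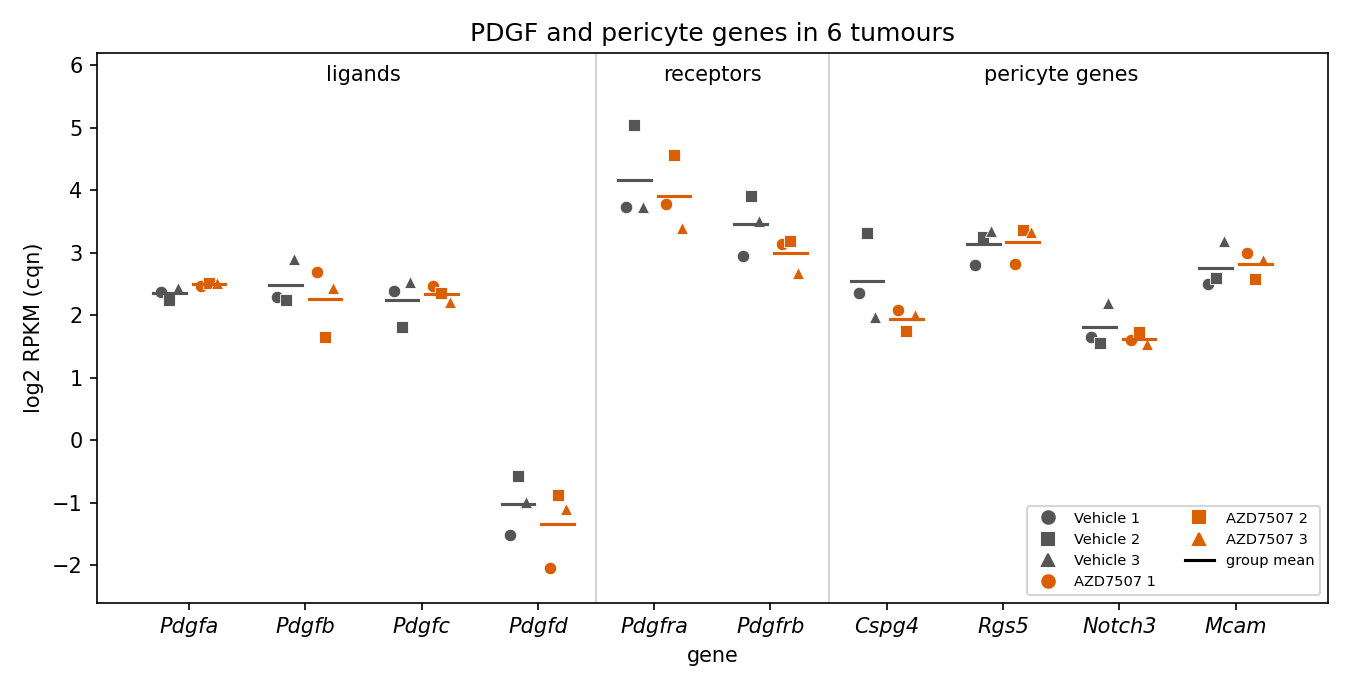
Log2 RPKM (y axis) of the 10 genes (x axis) in the 3 vehicle (grey) and 3 AZD7507 (orange) libraries; the marker shape gives the replicate number, which pairs no samples, and lines are group means. The groups are separate for Pdgfa and overlap for the other 9 genes, and Vehicle 2 stands highest for Pdgfd, Pdgfra, Pdgfrb and Cspg4.

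Among the ligands, Pdgfa encodes the A chain, which acts through PDGFRA. It was at 2.38, 2.25 and 2.44 in the vehicle libraries and at 2.46, 2.52 and 2.52 with AZD7507. Pdgfa was the only member whose groups did not overlap, 1 of 10 against 15.4% of all genes (7.34% of all genes were separate and higher), and each AZD7507 tumour was above each vehicle tumour. The difference was small, 0.15 (SE 0.11, 95% interval -0.11 to 0.40, limma adjusted p 0.78), or 1.11-fold. Pdgfa spans chromosome 5 from 138976014 to 138997370 on the minus strand of GRCm38, where the antisense gene 6330403L08Rik shares 26.1% of its exon bases. As the strand setting is not given in the sources used here, reads of that pair cannot be told apart. The antisense gene itself differed by -0.03.

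Pdgfb, the B chain that endothelial cells use to recruit pericytes, was at 2.29, 2.25 and 2.90 with vehicle and at 2.70, 1.65 and 2.44 with AZD7507. The groups overlapped, and AZD7507 2, an acinar-rich library, was the lowest of the 6. The difference was -0.22 (SE 0.30, 95% interval -0.92 to 0.48, limma adjusted p 0.89). Leaving out AZD7507 2 gave 0.09, leaving out Vehicle 3 gave -0.0052, and leaving out both acinar-rich libraries gave -0.03. Pdgfb spans chromosome 15 from 79995874 to 80014977 on the minus strand. The lower bound of -0.92 corresponds to 0.53 of the vehicle level. Pf4, a platelet gene, differed by -1.46 (limma adjusted p 0.41). Itga2b differed by 0.23 and the other 3 of 5 platelet markers had no row, so a platelet source of ligand was not tested.

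Pdgfc and Pdgfd encode the ligands that carry a CUB domain and need cleavage outside the cell. Pdgfc was at 2.40, 1.82 and 2.54 with vehicle and at 2.47, 2.35 and 2.21 with AZD7507, with Vehicle 2 the lowest. The Pdgfc difference was 0.09 (SE 0.20, limma adjusted p 0.93) and turned to -0.12 without Vehicle 2 and -0.13 without both acinar-rich libraries. Pdgfd, which acts mainly through PDGFRB, was at -1.52, -0.58 and -0.98 with vehicle and at -2.05, -0.87 and -1.10 with AZD7507. These Pdgfd values lie below 1 RPKM and may rest on few reads. Its difference was -0.32 with the widest interval among the ligands, -1.29 to 0.66, and it turned to 0.04 without AZD7507 1. Pdgfc lies on chromosome 3 from 81036416 to 81214040 and Pdgfd on chromosome 9 from 6168584 to 6378850, both on the plus strand. Pdgfc exceeded Pdgfd within each library, by a mean of 3.28 ± 0.79 with vehicle and 3.69 ± 0.72 with AZD7507.

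Pdgfra, the receptor gene of fibroblasts, was at 3.73, 5.05 and 3.74 with vehicle and at 3.78, 4.57 and 3.40 with AZD7507. Its highest values were in Vehicle 2 and AZD7507 2, the libraries that held acinar RNA, and the other 4 lay between 3.40 and 3.78. The libraries spanned 3.14-fold for Pdgfra, the widest span among the members. The difference was -0.25 (SE 0.42, 95% interval -1.24 to 0.74, limma adjusted p 0.91). Without Vehicle 2 it turned to 0.19, and without both acinar-rich libraries it was -0.14. Whether the tissue that brought acinar RNA also brought Pdgfra transcripts was not tested. Pdgfra lies on chromosome 5 from 75152292 to 75198215 on the plus strand.

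Pdgfrb, the receptor gene of pericytes and many fibroblasts, was at 2.96, 3.91 and 3.51 with vehicle and at 3.14, 3.18 and 2.68 with AZD7507. Of the vehicle libraries, 2 were above every AZD7507 library and Vehicle 1 lay among them. The difference was -0.46 (SE 0.25, 95% interval -1.06 to 0.13, limma adjusted p 0.68). It stayed negative in each fit that left out 1 library. It ran from -0.72 without Vehicle 1 (limma unadjusted p 0.013, adjusted p 0.47) to -0.24 without Vehicle 2, and was -0.33 without both acinar-rich libraries.

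Pdgfrb is the immediate neighbour of the gene for the drug's target. It lies on chromosome 18 from 61045150 to 61085061, and Csf1r starts 15536 bases further on, at 61100598, on the same plus strand. The coding gene Hmgxb3 on the opposite strand shares 15.1% of the exon bases of Csf1r. Without the strand setting, reads of that overlap cannot be told apart. Csf1r was at 4.85, 5.47 and 4.59 with vehicle and at 2.57, 2.78 and 1.71 with AZD7507. Pdgfrb minus Csf1r within a library was -1.90, -1.56 and -1.08 with vehicle and 0.57, 0.41 and 0.96 with AZD7507. Csf1r thus exceeded Pdgfrb in each vehicle tumour and was below it in each AZD7507 tumour. The ratio differed by 2.16 between groups (exact permutation test, 2-sided, p = 0.1, the smallest that 3 against 3 allows, adjusted p = 0.6 over 12 ratios). This ratio was chosen after the values were seen. It holds the fall of Csf1r, which differed by -2.62, while Pdgfrb differed by -0.46. Of the other receptors of the class, Kit was at 1.38 to 2.68 and differed by 0.05 (limma adjusted p 0.98), and Flt3 had no row. The ligand genes Kitl and Il34 differed by 0.39 and 0.33 (limma adjusted p 0.78 and 0.83).

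Among the pericyte genes, Cspg4 encodes NG2, a surface proteoglycan that binds PDGF-AA and marks pericytes. It had the largest difference of the 10. Cspg4 was at 2.36, 3.32 and 1.97 with vehicle and at 2.09, 1.74 and 2.002 with AZD7507. Vehicle 2 stood apart, and Vehicle 3 lay below AZD7507 1 and 3. The Cspg4 difference was -0.61 (SE 0.32, 95% interval -1.37 to 0.15, limma adjusted p 0.67). It shrank to -0.22 without Vehicle 2 and to -0.12 without both acinar-rich libraries. Without Vehicle 3 it was -0.90 (limma unadjusted p 0.020, adjusted p 0.55). Cspg4 spans chromosome 9 from 56865033 to 56899870 on the plus strand.

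Rgs5, a regulator of G protein signalling in mural cells, had the difference nearest 0 and the narrowest range over the 6 libraries among the 4 pericyte genes. It was at 2.81, 3.26 and 3.35 with vehicle and at 2.81, 3.36 and 3.34 with AZD7507. Each group had 1 low library and 2 near 3.3, and the Rgs5 difference was 0.03 (SE 0.20, 95% interval -0.44 to 0.51, limma adjusted p 0.98). An interval of this width leaves room for a change to 0.74 or to 1.42 of the vehicle level. Its sign changed when Vehicle 1, AZD7507 2 or AZD7507 3 was left out. Rgs5 spans chromosome 1 from 169655501 to 169695813 on the plus strand.

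Notch3, the Notch receptor of vascular smooth muscle and pericytes, was at 1.66, 1.56 and 2.20 with vehicle and at 1.61, 1.73 and 1.54 with AZD7507. Vehicle 3 was above the rest, which lay within 1.54 to 1.73. Its difference of -0.18 (SE 0.19, limma adjusted p 0.86) became 0.02 without Vehicle 3. It was -0.35 without both acinar-rich libraries and -0.38 when libraries were weighted by their quality in limma (unadjusted p 0.056, adjusted p 0.31). Notch3 spans chromosome 17 from 32120820 to 32166852 on the minus strand, and the antisense gene Gm17276 shares 6.03% of its exon bases. Mcam, the adhesion molecule CD146 of pericytes and endothelial cells, was at 2.50, 2.59 and 3.19 with vehicle and at 3.00, 2.57 and 2.88 with AZD7507. Vehicle 3 was again the highest, and the Mcam groups overlapped throughout (difference 0.05, SE 0.21, limma adjusted p 0.97). Mcam spans chromosome 9 from 44134469 to 44142727 on the plus strand.

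**Figure D3:**
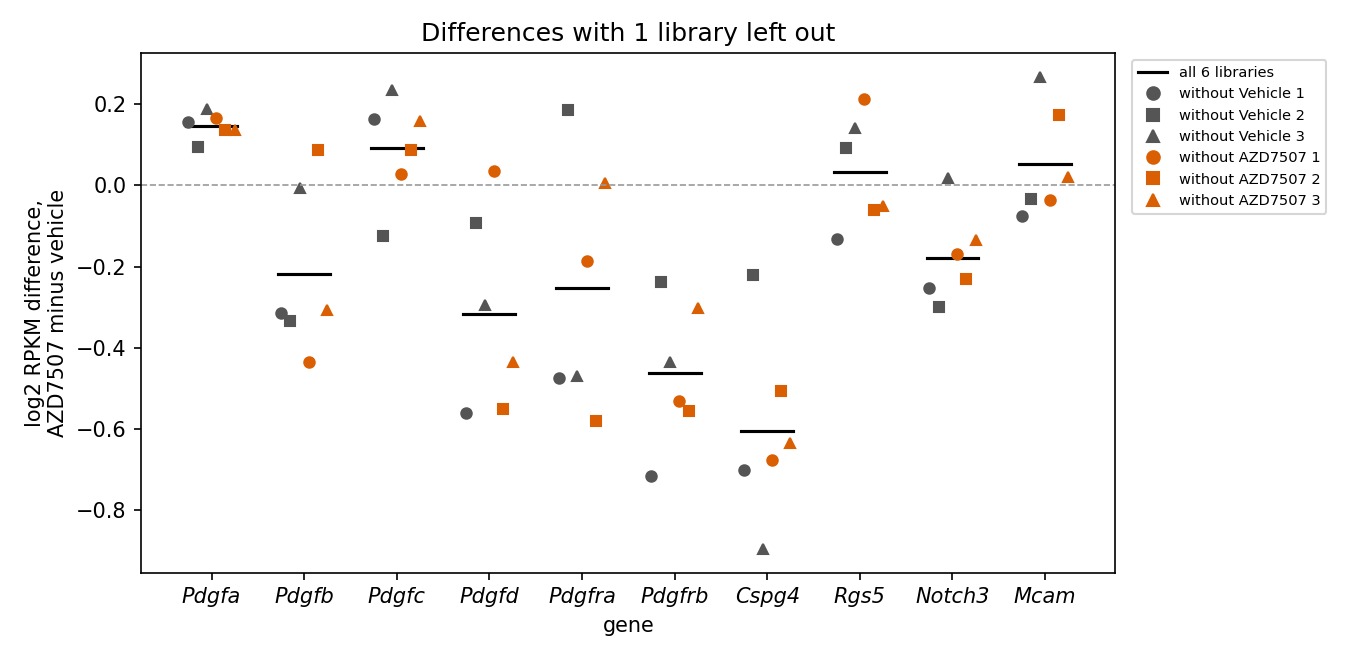
Difference in log2 RPKM, AZD7507 minus vehicle (y axis), of each gene with all 6 libraries (black lines) and with 1 library left out (points, coloured by the group of the library left out and shaped by its number). Pdgfrb and Cspg4 stay below 0 and Pdgfa above 0 throughout, while the other 7 genes cross 0.

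The members did not vary as 1 block. Vehicle 2 was the highest library for Pdgfd, Pdgfra, Pdgfrb and Cspg4, and Vehicle 3 for Pdgfb, Pdgfc, Notch3 and Mcam. Over all genes Vehicle 2 was the highest library for 22.5% and Vehicle 3 for 13.1%. Vehicle 2 was at the same time the lowest library for Pdgfa and Pdgfc. The vehicle SD exceeded the AZD7507 SD for 7 of 10 members, against 60.7% of all genes. Summarised by role, the mean log2 level of the 4 ligands was 1.52 ± 0.18 with vehicle and 1.44 ± 0.07 with AZD7507 (SD, n = 3). For the receptors it was 3.82 ± 0.59 and 3.46 ± 0.42, and for the pericyte genes 2.56 ± 0.20 and 2.39 ± 0.05. Each of these group differences was within the spread between the vehicle tumours.

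**Figure D4:**
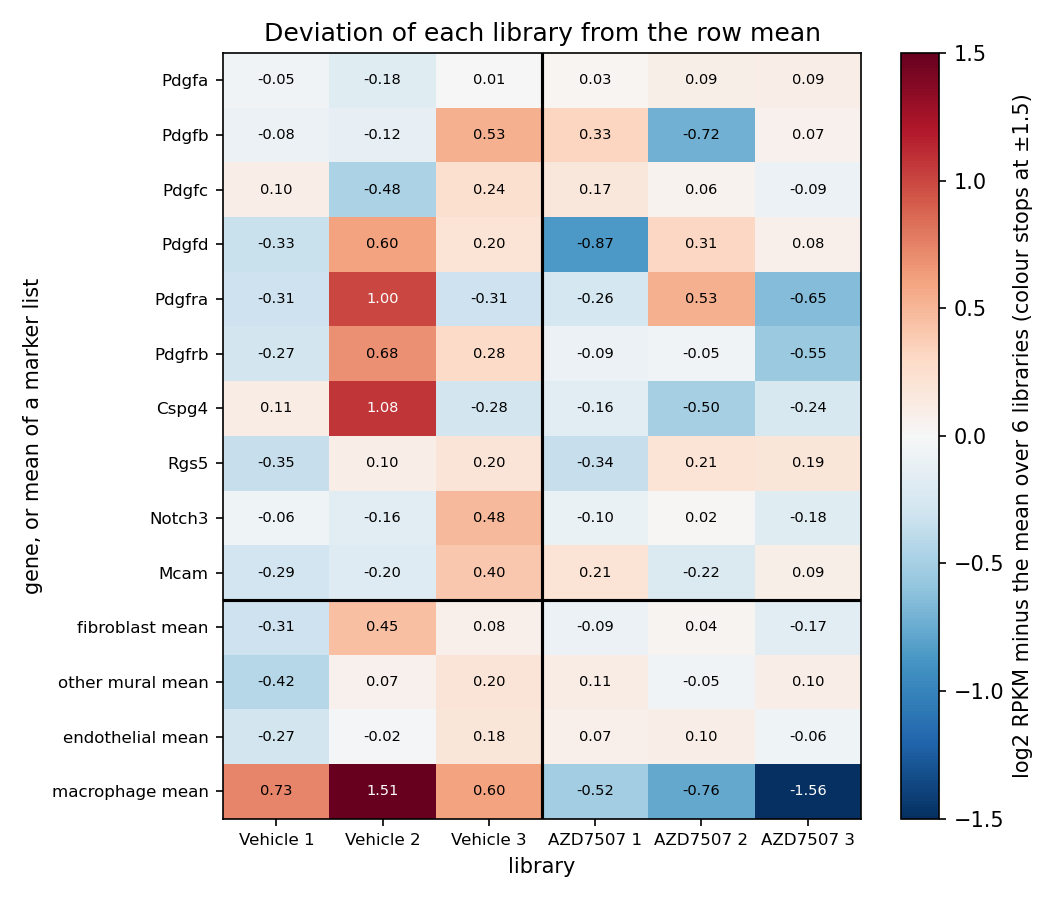
Log2 RPKM of each library (columns) minus the mean over 6 libraries for the 10 genes and, below the line, for the mean of 4 marker lists; red is above and blue below the row's mean. Vehicle 2 is red for Pdgfra, Pdgfrb, Cspg4 and the fibroblast mean, Vehicle 3 is red for Pdgfb, Notch3 and Mcam, and the macrophage mean alone separates the groups among the rows of list means.

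In lists of the rest of the pathway few genes passed the test. For comparison, 8.8% of all genes had an unadjusted p under 0.05 and 15.4% had groups that did not overlap. Of 31 signal transducers downstream of the receptors, 0 passed with limma (0 at an unadjusted p under 0.05), 15 were above and 16 below 0, and the median difference was -0.0066 (-0.0064 to 0.022 with 1 library left out). The adaptor genes Crkl and Sos1 differed by 0.20 and 0.21, and the kinase gene Braf by -0.15, and the groups of Crkl and Braf did not overlap (2 of 31 genes). Of 12 negative regulators 0 passed (2 unadjusted), with a median of 0.10 (0.030 to 0.13 with 1 library left out). The ubiquitin ligase gene Cbl differed by -0.39 and the phosphatase gene Ptpn1 by -0.45, each with groups that did not overlap (2 of 12 genes). The feedback inhibitor gene Spry4 differed by 0.52. Of 13 immediate early genes, which growth factor signals induce, 10 were above 0 and 0 passed (0 unadjusted). Their median was 0.16, from 0.053 without Vehicle 1 to 0.32 without Vehicle 2. Myc differed by 0.43, Egr1 by 0.39 and Ier3 by 0.40, and of the 13 only Myc had groups that did not overlap.

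Of the proteases that activate PDGF and its co-receptors, 8 of 9 had a row and 0 passed. Of the 8, 1 had an unadjusted limma p under 0.05, against 8.8% of all genes, and the median difference was -0.10. That median was 0.12 without Vehicle 2, -0.24 without Vehicle 3 and -0.041 without both acinar-rich libraries. Lrp1, an endocytic receptor that associates with PDGFRB and is also abundant on macrophages, was at 7.69, 7.45 and 7.44 with vehicle and 7.31, 6.71 and 7.05 with AZD7507. Every AZD7507 library was below every vehicle library for Lrp1 (difference -0.50, SE 0.17, limma adjusted p 0.45). It was the only 1 of the 8 genes with separate groups, against 15.4% of all genes. The macrophage marker mean over the same libraries was 3.94 ± 0.49 with vehicle and 2.04 ± 0.54 with AZD7507 (SD, n = 3), and its part in the Lrp1 values was not tested. The proprotein convertase gene Furin differed by -0.22. Plau, which encodes urokinase, an activator of PDGF-D, differed by -0.32, with Vehicle 2 at 4.54 and the other 5 libraries at 2.87 to 3.24.

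Of the other mural cell genes, 19 of 23 had a row, with a median difference of 0.10, and 1 rose, against 0.0184% of all genes called higher. That gene was Steap4, a metalloreductase gene found in some pericytes and also in adipocytes, placed on the list with its rise already known. It was at 2.68, 2.52 and 2.47 with vehicle and 3.34, 3.40 and 3.40 with AZD7507 (difference 0.82, SE 0.10, limma adjusted p 0.035). The median of the list turned to -0.16 without Vehicle 1 and was 0.25 without Vehicle 3. No gene passed upward when any 1 library was left out, Steap4 included. The pericyte markers Vtn, Higd1b and Cox4i2 had no row and were not analysed here. The contractile genes Acta2 and Tagln, of smooth muscle and activated fibroblasts, stood at 2.96 to 3.60 and 2.52 to 3.73, with differences of 0.05 and 0.13. Aspn and Actg2, with differences of -0.54 and 0.67, rested on log2 levels below 0.

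Of the Notch ligands, other receptors and targets, 12 of 13 had a row, 0 passed (3 unadjusted, against 8.8% of all genes), and the median was -0.05. That median was 0.079 without Vehicle 3, 0.0049 without AZD7507 3 and -0.16 when the acinar-rich pair was left out. Rbpj, the transcription factor gene of the pathway, was at 2.44, 2.92 and 2.76 with vehicle and 2.33, 2.19 and 2.11 with AZD7507. Its groups did not overlap, nor did those of Notch2 and Jag1, which were also lower (differences -0.49, -0.37 and -0.30, limma adjusted p 0.37, 0.48 and 0.57), or of Jag2, which was higher by 0.20. These are 4 of 12 genes, against 15.4% of all genes. Heyl, a target gene of Notch3, differed by -0.33 and was at 0.19 to 0.88. Endothelial markers, 16 of 16 with a row, had a median of 0.07 with 0 calls (0 unadjusted). The endothelial median was -0.095 without Vehicle 1, 0.20 without Vehicle 3 and -0.021 without AZD7507 2, and it was -0.0060 when the acinar-rich pair was left out. Esm1, Cldn5 and Egfl7 led with differences of 0.68, -0.47 and -0.32. Fibroblast markers had a median of -0.21, with 11 of 15 below 0 and 0 calls (1 unadjusted). That median shrank to -0.044 without Vehicle 2 and -0.050 without both acinar-rich libraries, and was -0.36 without Vehicle 1. The matrix gene Mfap5 and the adventitial fibroblast gene Pi16 differed by -0.52 and -0.61, and Thy1 by 0.42. Mesothelial markers had a median of 0.24 and epithelial markers 0.32, each with 0 calls (1 and 2 unadjusted). With 1 library left out the mesothelial median ran from 0.092 without Vehicle 2 to 0.43 without AZD7507 2, and the epithelial median from 0.22 without Vehicle 2 to 0.51 without Vehicle 3. Gpm6a differed by 0.67, Rspo1 by 0.36, Krt8 by 0.39 and Cldn3 by 1.19.

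Of the members, 7 were set within each library against the mean of a cell marker or mural list; Pdgfa, Pdgfc and Pdgfd were not. Over 12 within-library ratios, tested by exact permutation, the adjusted p ran from 0.6 to 1. The 12 include Pdgfrb minus Csf1r, which was chosen after its values were seen. Since 3 against 3 cannot give an exact p below 0.1, these p-values could not pass at any size of difference and do not show that a ratio was stable. Pdgfrb minus the fibroblast mean was -0.29, -0.10 and -0.12 with vehicle and -0.33, -0.42 and -0.72 with AZD7507. Each AZD7507 value was below each vehicle value, a difference of -0.32 (exact permutation p = 0.1, adjusted p = 0.6). That adjusted p is smaller than an adjustment over the planned ratios alone would give, because Pdgfrb minus Csf1r was counted in. None of the other 10 planned ratios separated the groups. For comparison, 15.4% of all genes had groups that did not overlap, so 1 separate ratio does not stand out. Pdgfb minus the endothelial mean differed by -0.30 (exact p = 0.6), with AZD7507 2 at 0.10 and the other libraries at 0.82 to 1.28. Cspg4 minus the mean of the other mural genes was 1.39, 1.86 and 0.37 with vehicle and 0.58, 0.40 and 0.50 with AZD7507, so the groups overlapped (exact p = 0.4). Rgs5 minus the same mean differed by -0.07 and Mcam minus the endothelial mean by -0.02, each at exact p = 1.

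Across the 6 libraries, 40 relations of members to list means were computed, and none passed after adjustment. Among them, Pdgfrb was higher where the mean of the fibroblast markers was higher (Pearson r = 0.90, exact permutation p = 0.018, adjusted p = 0.36; Spearman rho = 0.94, exact p = 0.017, adjusted p = 0.22). Without Vehicle 1 and Vehicle 2, the libraries farthest from the median of that list, r was 0.90. Mcam had the same order of libraries as the mean of the other mural genes (r = 0.75, exact p = 0.051, adjusted p = 0.46; rho = 1, exact p = 0.0028, adjusted p = 0.056), and r was 0.92 without Vehicle 1 and AZD7507 2. The pericyte genes Rgs5, Notch3 and Cspg4 did not follow that mean in this way (rho = 0.26, 0.09 and -0.26). Pdgfra had r = 0.83 with the fibroblast mean (exact p = 0.040, adjusted p = 0.46; rho = 0.77, exact p = 0.10, adjusted p = 0.68), and 0.63 without the same vehicle pair. The points share the libraries and their normalization. For Pdgfa the order of the libraries was the exact reverse of that of the macrophage mean, with AZD7507 2 and AZD7507 3 nearly level for Pdgfa (r = -0.92, exact p = 0.0042, adjusted p = 0.17; rho = -1, exact p = 0.0028, adjusted p = 0.056), and r was -0.88 without Vehicle 2 and AZD7507 3. The macrophage mean separated the treatment groups, so these values include the difference between the groups, and a relation within the groups was not tested.

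**Figure D5:**
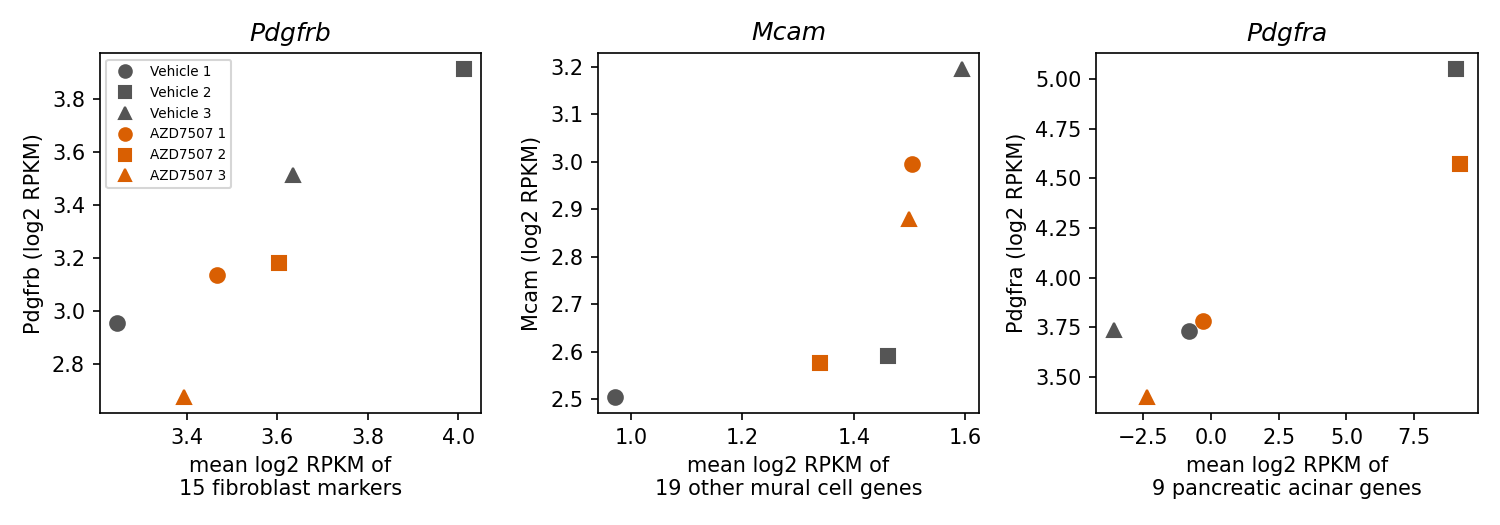
Log2 RPKM of Pdgfrb, Mcam and Pdgfra (y axes) against the mean log2 RPKM of fibroblast markers, other mural cell genes and pancreatic acinar genes (x axes), 1 point per library, with vehicle in grey and AZD7507 in orange. Pdgfrb and Mcam are higher where their list means are higher, across both groups, and Pdgfra is highest in the 2 libraries with acinar RNA. Mcam is the only gene of the pericyte members shown.

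The genes most like a member over the 6 libraries were found by the root mean square difference of log2 values after centring each gene on its mean. For Pdgfra they were Emilin1, a gene for an elastic fibre glycoprotein (0.08), St6galnac4 (0.10) and Meis3 (0.14). Emilin1 was likewise highest in Vehicle 2, at 5.04, and AZD7507 2, at 4.77. For Pdgfrb they were Serpinf1, which encodes the secreted factor PEDF (0.09), Dchs2 (0.12) and Mylip (0.12). Serpinf1 was at 3.82, 4.73 and 4.35 with vehicle and 3.97, 4.16 and 3.74 with AZD7507. For Rgs5 they were the mitotic kinesin gene Kifc1 (0.09), Gpld1 (0.10) and Prc1 (0.10). None of these 9 genes passed between the groups (limma adjusted p 0.62 to 0.95). A search of so many genes over only 6 libraries can find close matches without a shared source, which was not tested.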

How the data were processed

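The deposited values are log2 RPKM after cqn, a normalization by the authors for GC content and length, named in the title of the table. It can make libraries alike, so a global change in RNA cannot be seen. BWA 0.7.15-r1140, HTSeq, mm10 and GRCm38 are named in the submitters' processing notes. Annotation release, strand setting and any filter are not given in the sources used here. Libraries were made from total RNA after ribosomal depletion, per the labels' protocols. Symbols matched 16306 of 16344 identifiers, and coordinates are GENCODE M21 on GRCm38.

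Without a pseudocount or filter, the deposited log2 values entered limma 3.58.1 (R 4.3.3) with a trended, robust prior on all 6 libraries and Benjamini-Hochberg adjustment over all genes, 2-sided, at 0.05. Intervals are limma's. The fit was tested on simulated data with independent noise for each gene, which held no effect shared by a library such as the acinar RNA. Within-library ratios used exact permutation tests. Groups came from the treatment label and replicate numbers from record order, so a p-value reflects only how these tumours varied. Members and lists (202 genes, 186 measured) were chosen with earlier results of these data known. From each other list the text names the genes that passed and the 3 with the smallest unadjusted p, with Csf1r, Kit and Flt3, and the 3 genes most like Pdgfra, Pdgfrb and Rgs5; further genes were chosen after their values were seen. A gene of the signal transducer list is not reported here, and the counts leave it out. Platelet, adipocyte and acinar lists served as markers. The adipocyte list (4 of 5 measured, median difference 0.59) had 0 calls (0 unadjusted), with Lpl at 0.49, Cfd at 0.84 and Fabp4 at -0.36. Its median was 0.0046 without Vehicle 1 and 0.93 without AZD7507 1. The acinar list (9 of 12, median 0.63) had 0 calls (0 unadjusted), with differences of 0.80 for Cela3b, 0.93 for Ctrb1 and 1.21 for Prss2. Its median ran from -2.73 without AZD7507 2 to 4.57 without Vehicle 2. The 14 alternatives used array weights, a constant prior, median centring, quantile normalization, a pseudocount of 0.1 or 1, a floor of 0 on the mean log2 RPKM, or left out each library or both acinar-rich libraries.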

Additional observations from a re-analysis of the deposited data

How the results depend on the processing

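No member passed under any of the 14 alternatives (the smallest limma adjusted p of any member was 0.31, for Notch3 with array weights). The filter at a mean log2 RPKM of 0 removed Pdgfd. Signs of small member differences changed: with array weights Pdgfc was -0.074, Rgs5 -0.11 and Mcam -0.034, and without both acinar-rich libraries Pdgfc was -0.13 and Rgs5 -0.0013. With 1 library left out, the differences ran from -0.44 to 0.088 for Pdgfb, -0.12 to 0.24 for Pdgfc, -0.56 to 0.037 for Pdgfd, -0.58 to 0.19 for Pdgfra, -0.13 to 0.21 for Rgs5, -0.30 to 0.019 for Notch3 and -0.076 to 0.27 for Mcam. The median over the 10 members ran from -0.28 to 0.0067, the latter without Vehicle 3. The cause of these changes was not tested.

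All-gene counts moved: 55 fell and 3 rose in the reported fit, 143 and 14 with array weights, 13 and 1 without both acinar-rich libraries, 1 rose with the constant prior, and with 1 library left out 0 to 14 fell and 0 rose. Ratios that changed sign ran, with 1 library left out, from -0.38 to 0.14 for Pdgfra minus the fibroblast mean, -0.031 to 0.73 for Pdgfc minus Pdgfd, -0.42 to 0.034 for Pdgfrb minus Pdgfra, -0.12 to 0.13 for Mcam and -0.49 to 0.044 for Pdgfb minus the endothelial mean, and -0.22 to 0.14 for Rgs5 minus the other mural mean. Mcam minus the endothelial mean was 0.036 without both acinar-rich libraries. No paired analysis was possible because the labels give no replicate number that links tumours across groups. What depth limits cannot be given, since it is unknown.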
